A study of Mus musculus with 8 samples.

Results

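The long noncoding RNA Kcnq1ot1 and 7 protein-coding genes that lie in its imprinted domain on mouse chromosome 7 were described in mouse embryonic stem cells. The members were taken by name (Kcnq1ot1, Kcnq1, Cdkn1c, Phlda2, Slc22a18, Tssc4, Cd81 and Nap1l4), and all 8 were found among the 17597 genes of the deposited table. RNA was sequenced from 8 libraries in 2 groups of 4, cells given dTAG-13 for 26 h and untreated cells, each with 2 replicates of clone C3 and 2 of clone H5. Both groups carried METTL3, the catalytic subunit of the enzyme that writes N6-methyladenosine (m6A) on RNA, fused to the FKBP12F36V degron, which dTAG-13 targets for destruction. Both also had a Cast x 129S background and a TetOn promoter in place of that of the endogenous Xist gene, and neither group received doxycycline. The labels put that promoter on the 129S allele, whereas the study's text places it on the Cast X chromosome in these clones. Each line is 1 clone, and the cells were grown in serum and LIF on mitomycin-treated fibroblast feeders. The labelled molecule and the methods give total RNA, whereas the labels' extraction text describes a chromatin fraction.

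The design text of this experiment names as its aim to find genes that respond directly to acute loss of METTL3, within a study of m6A in X inactivation. The table holds 1 level for each gene, termed the mean count below, which the authors obtained by scaling the reads of each library by its size factor and averaging over all 8. Its other columns are the authors' own comparison of the groups and were not used, so the values below describe the level of each gene over both groups together and say nothing of the effect of dTAG-13. A mean count has no SD, because it averages the libraries into 1 value.

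In this domain, Kcnq1ot1 is transcribed from the paternal chromosome, from a promoter within an imprinting control region that is methylated on the maternal chromosome. The RNA stays at the chromatin and silences neighbouring genes in cis. Cdkn1c, Phlda2, Slc22a18 and Kcnq1, the inner genes, are imprinted widely in the embryo, and genes farther out, such as Cd81 and Tssc4, mainly in the placenta. The mean counts add both alleles, so they carry no information on imprinting.

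A promoter window, 250 bases before to 50 bases after the start, was given by RefSeq (GRCm38.p6) for 5 of the 8 genes: Kcnq1ot1, Phlda2, Slc22a18, Tssc4 and Cd81. The windows of Kcnq1ot1, at chr7:143296498-143296797 on the minus strand, Phlda2, at chr7:143502475-143502774 on the minus strand, and Slc22a18, at chr7:143473539-143473838 on the plus strand, are shown because they differed in CCAAT boxes and CpG content. Each reads 5′ to 3′ on the strand of its gene, with CCAAT boxes in capitals.
Kcnq1ot1: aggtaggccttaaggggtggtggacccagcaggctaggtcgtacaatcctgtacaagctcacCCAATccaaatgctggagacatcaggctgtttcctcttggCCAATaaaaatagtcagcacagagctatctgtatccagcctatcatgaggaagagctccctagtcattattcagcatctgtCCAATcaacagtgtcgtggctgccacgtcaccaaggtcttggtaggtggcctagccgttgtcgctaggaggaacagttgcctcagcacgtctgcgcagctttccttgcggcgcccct
Phlda2: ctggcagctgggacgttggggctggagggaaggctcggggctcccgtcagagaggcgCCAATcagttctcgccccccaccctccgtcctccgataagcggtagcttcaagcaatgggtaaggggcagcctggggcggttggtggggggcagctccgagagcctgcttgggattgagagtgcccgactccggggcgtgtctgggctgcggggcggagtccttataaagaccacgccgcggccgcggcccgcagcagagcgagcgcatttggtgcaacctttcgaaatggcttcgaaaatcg
Slc22a18: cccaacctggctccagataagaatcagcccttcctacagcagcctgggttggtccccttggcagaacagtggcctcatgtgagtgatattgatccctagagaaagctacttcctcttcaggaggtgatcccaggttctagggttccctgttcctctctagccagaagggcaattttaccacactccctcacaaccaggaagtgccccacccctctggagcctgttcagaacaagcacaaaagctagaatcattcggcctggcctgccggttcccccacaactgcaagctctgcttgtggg

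Kcnq1ot1 had 3 CCAAT boxes, at positions -188, -148 and -67 from the start, all on the strand of the gene. Of 32851 mouse promoter windows of the same length, 37.4% held the letters CCAAT on either strand at least 1 time and 3.37% held them at least 3 times. Phlda2 had 1 CCAAT box, at -193, and Tssc4 had 1 on the other strand, at -169. No CCAAT was found in the windows of Slc22a18 and Cd81. The letters GGGCGG, a GC box bound by Sp1 family factors, were found 2 times in Phlda2 and 3 times in Cd81, and at least 1 time in 35.7% of all windows. TATAAA was found in Phlda2 at -30, in Cd81 at 7 bases after the start, and in 13.6% of all windows. TGCCGC, the letters bound by ZFP57 when methylated, searched on both strands as all these motifs were, was in none of the 5 windows and in 11.6% of all windows. These are matches of letters, and binding was not measured. Only the windows were examined, so motifs and CpG content of the imprinting control region beyond the Kcnq1ot1 window are not described.

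CpG content separated the windows (plot of promoter CpG content). The observed over expected CpG ratio, which is low where CpG sites have been lost, was 0.422 in Kcnq1ot1 with 9 CpG sites, and 53.0% of windows were lower. It was 0.904 in Tssc4 (23 sites), 0.819 in Phlda2 (26 sites) and 0.713 in Cd81 (23 sites), all well above the median window at 0.384. Slc22a18 had 2 CpG sites and a ratio of 0.0919, and 12.2% of windows were lower. The Kcnq1ot1 window thus lay nearer to the median of all promoters than those of Tssc4, Phlda2 and Cd81 did. GC content was 53.3% in Kcnq1ot1, 54.7% in Slc22a18, 58.3% in Tssc4 and 65.7% in both Phlda2 and Cd81.

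**Figure D1:**
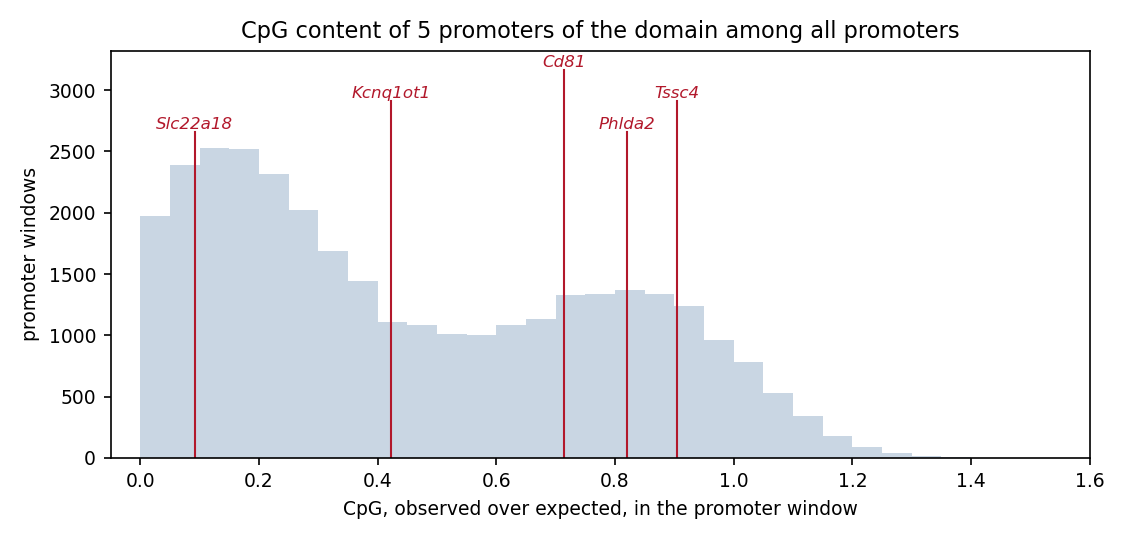
Observed over expected CpG in the 300-base promoter windows. Bars count 32851 windows, and red lines mark 5 genes of the domain, from Slc22a18 at 0.0919 to Tssc4 at 0.904.

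Kcnq1ot1 (ENSMUSG00000101609.2) had a mean count of 6671, the highest of the 8 genes, and 98.2% of all genes were lower. In the GENCODE vM21 annotation (mm10) it is 1 exon of 93092 bases on the minus strand at chr7:143203458-143296549, the third longest exon sequence of any gene matched. Longer genes collect more reads, so levels were compared between genes per kb of exon. The lengths are those of GENCODE, whereas the study took its gene annotation from the UCSC genome browser. The gene models behind the counts may therefore differ from those behind the lengths. On that scale Kcnq1ot1 had a mean count of 71.7 per kb, against a median of 39.9 per kb over the 17377 genes with a length, and 59.1% of them were lower.

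Kcnq1 (ENSMUSG00000009545.14), the voltage-gated potassium channel that gives the RNA its name, lies on the opposite strand and surrounds Kcnq1ot1, at chr7:143106362-143427042 with 22 exon blocks. Its mean count was 2.17, which is 0.529 per kb, and 8.09% of genes were lower. Per kb, Kcnq1ot1 was 135-fold higher than Kcnq1. One exon block of Kcnq1, with 121 bases in common, falls inside Kcnq1ot1, so if reads were counted without strand the few reads of Kcnq1 could include reads of Kcnq1ot1. Whether strand was used is uncertain, since the default of the counting tool ignores it and the deposited table is named for a reverse setting.

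The other inner genes lay to the higher-coordinate side of the Kcnq1ot1 start and had unequal levels. Phlda2 (ENSMUSG00000010760.5, chr7:143501545-143503150, minus strand, start 207 kb from that of Kcnq1ot1), a pleckstrin homology protein that limits placental growth, had a mean count of 277, or 247 per kb, with 80.4% of genes lower. Cdkn1c (ENSMUSG00000037664.13, chr7:143458339-143461050, minus strand, 165 kb away), the cyclin-dependent kinase inhibitor p57, had a mean count of 141, or 68.9 per kb, with 58.4% of genes lower. Slc22a18 (ENSMUSG00000000154.16, chr7:143473736-143499334, plus strand, 177 kb away), a membrane transporter that lies between them, had a mean count of 7.94, or 4.67 per kb, with 26.6% of genes lower. Per kb, Phlda2 was the only 1 of these that was higher than Kcnq1ot1, by 3.45-fold. Of the 2039 exon bases of Cdkn1c, 625 are shared with Gm44732 on the opposite strand.

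The outer genes were the highest of the 8 per kb of exon. Cd81 (ENSMUSG00000037706.17, chr7:143052739-143067934, plus strand, 244 kb away), a tetraspanin of the plasma membrane, had a mean count of 2622, or 911 per kb, with 94.8% of genes lower. Nap1l4 (ENSMUSG00000059119.9, chr7:143513579-143549106, minus strand, 253 kb away), a histone chaperone of the nucleosome assembly protein family, had a mean count of 2370, or 766 per kb, with 93.6% of genes lower. Tssc4 (ENSMUSG00000045752.13, chr7:143069249-143071093, plus strand, 227 kb away), a factor of spliceosome assembly, had a mean count of 634, or 344 per kb, with 85.4% of genes lower. Per kb of exon, all 3 were above the 4 inner protein-coding genes, whose highest was Phlda2 at 247, but Phlda2 was above Tssc4 with the longest transcript as the length and above Nap1l4 with the whole span. Tssc4 shares 220 bases with Trpm5, and Cd81 shares 104 with R74862, both on the opposite strand.

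**Figure D2:**
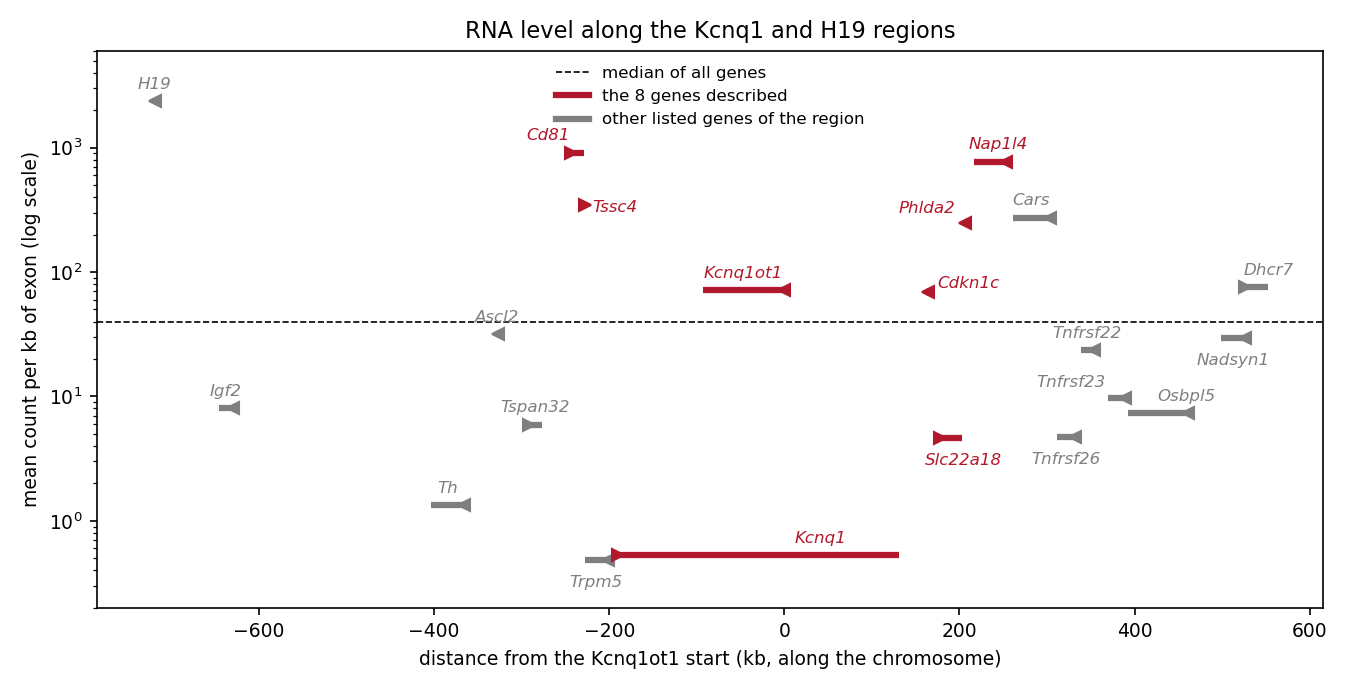
Mean count per kb of exon (log scale) against distance from the Kcnq1ot1 start in kb, with triangles at each gene's start pointing in its direction of transcription and lines for its span. The 8 genes described are red, other genes of the region are grey, the dashed line is the median gene at 39.9, and Kcnq1 lies at 0.529 around Kcnq1ot1 at 71.7.

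From the highest to the lowest, the order per kb was Cd81, Nap1l4, Tssc4, Phlda2, Kcnq1ot1, Cdkn1c, Slc22a18 and Kcnq1. Neighbours in that order differed by 1.19-fold (Cd81 over Nap1l4), 2.23-fold (Nap1l4 over Tssc4), 1.39-fold (Tssc4 over Phlda2), 3.45-fold (Phlda2 over Kcnq1ot1), 1.04-fold (Kcnq1ot1 over Cdkn1c), 14.8-fold (Cdkn1c over Slc22a18) and 8.83-fold (Slc22a18 over Kcnq1). Cd81 was 1721-fold higher than Kcnq1. Because the spread over libraries is not known for these genes, the order of Kcnq1ot1 and Cdkn1c and of Cd81 and Nap1l4 cannot be given an error. With the longest transcript as the length, or with only exon bases free of other genes, Cdkn1c came above Kcnq1ot1. With the whole span as the length, Kcnq1ot1 was above Nap1l4 and Cdkn1c but below Tssc4, Cd81 and Phlda2.

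**Figure D3:**
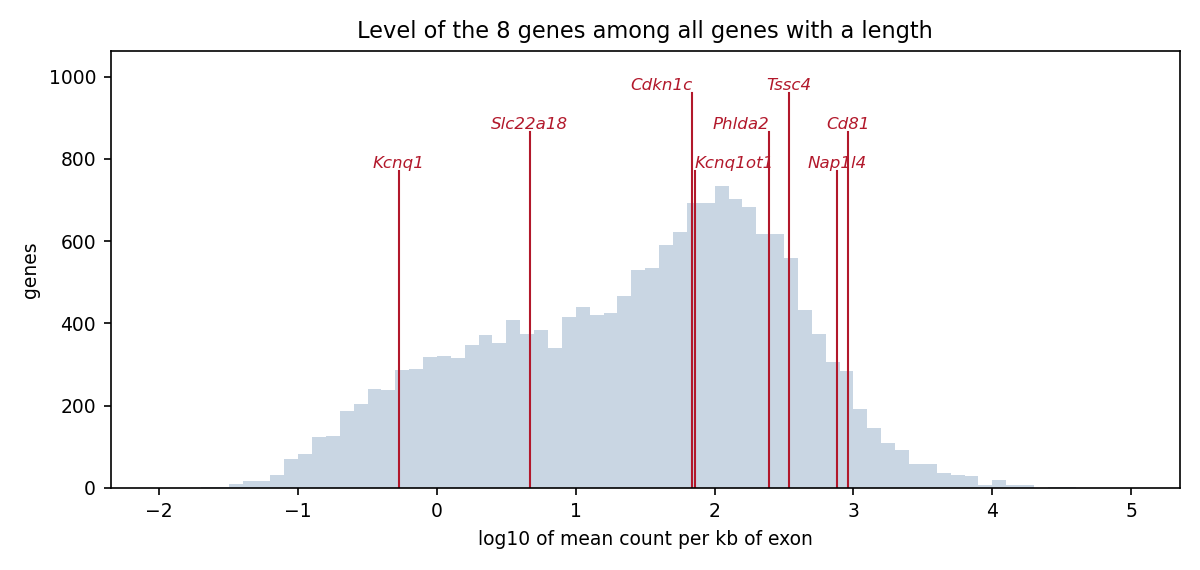
Number of genes by log10 of mean count per kb of exon, over 17377 genes. Red lines mark the 8 genes, with Kcnq1 and Slc22a18 in the lower part and Nap1l4 and Cd81 in the upper part of the distribution.

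For genes with few reads, the mean count is exact enough to be split into whole reads. In all 712 features with a mean count under 0.75, the value was a sum of whole reads over 8 libraries to within 1e-12. The size factors, from 0.702 to 1.44, were found from these same features, so this agreement is not an independent check. Reads of Kcnq1 and Slc22a18 were recovered with the same size factors. The libraries recovered carry no name and cannot be assigned to clones or treatments, so they are numbered from the lowest to the highest size factor and were not compared as groups. Intervals are exact Poisson 95% intervals and cover counting error only.

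Kcnq1 had 17 reads in all (9.90 to 27.2), spread over 7 of the 8 libraries. From library 1 to library 8 it had 4, 2, 2, 0, 1, 2, 3 and 3 reads, and the library with 0 allows up to 4.14 reads after division by its size factor. No library stood out, and the intervals of all 8 overlapped. Slc22a18 had 69 reads (53.7 to 87.3), with 3, 3, 13, 5, 6, 13, 4 and 22 reads from library 1 to library 8. Divided by the size factors, these are 4.28, 3.42, 14.6, 5.61, 6.17, 11.0, 3.04 and 15.3. The level of Kcnq1 therefore rests on a handful of reads a library, and that of Slc22a18 on 3 to 22.

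**Figure D4:**
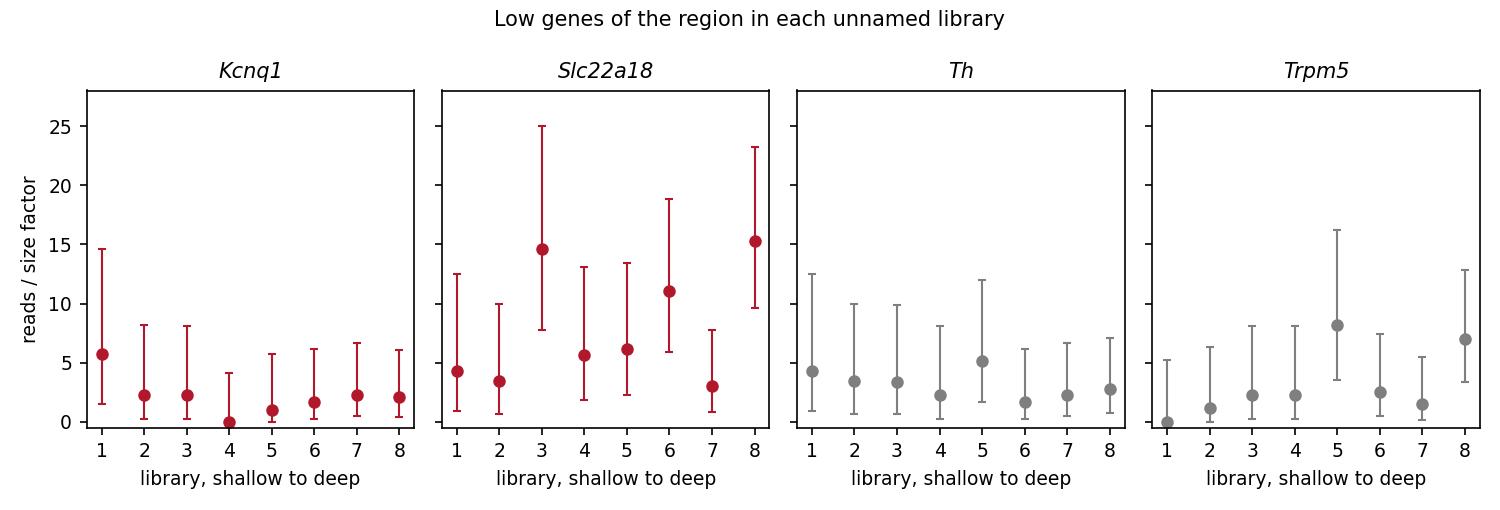
Recovered reads divided by the size factor for 4 low genes of the region in 8 unnamed libraries, ordered from shallow to deep. Points are single libraries, bars are exact Poisson 95% intervals, and Slc22a18 runs from 3.04 to 15.3 while Kcnq1 stays at or below 5.70.

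Of 23 genes listed for the wider region, from the H19 and Igf2 domain to Dhcr7, 21 had a value (Ins2 and Mrgprg did not). Their mean counts summed to 21152, of which Kcnq1ot1 made up 31.5% and H19, the maternally expressed lncRNA of the adjoining domain, 27.3%. Cd81 followed with 12.4%, Nap1l4 with 11.2% and Cars, a cysteinyl-tRNA synthetase, with 8.48%. Kcnq1ot1 is long, and of the summed values per kb its share was 1.37%, against 44.9% for H19. Per kb, 9 of the 21 genes were above the median of all genes and 7 were above Kcnq1ot1, and of the 8 members 6 and 4 were. Among genes imprinted in the placenta, Ascl2, a trophoblast transcription factor, was at 31.6 per kb, Tspan32 at 5.91 and Osbpl5 at 7.35. Trpm5, a cation channel whose span holds Tssc4, was at 0.486 and Th, tyrosine hydroxylase, at 1.33.

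Set beside other nuclear or imprinted lncRNAs per kb, Kcnq1ot1 was in the middle of the range. Of 9 listed, 8 had a value (Snhg14 did not), with a median of 51.3 per kb, and 3 were above Kcnq1ot1: Malat1, a nuclear speckle RNA, by 53.7-fold, H19 by 32.7-fold and Meg3, of the Dlk1 domain, by 2.27-fold. Kcnq1ot1 was 1.66-fold above Xist, the RNA of X inactivation, and 2.72-fold above Neat1, the paraspeckle RNA. No library received doxycycline, so this is the level of Xist without induction of its TetOn promoter. Kcnq1ot1 was also 43.4-fold above Airn, which silences the Igf2r domain in cis and stood at 1.65 per kb. Tsix, antisense to Xist, was at 59.4 per kb and Peg13 at 22.9. Xist and Tsix overlap on opposite strands and share the uncertainty over strand.

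The relatives of the protein-coding members spanned a wide range. Of 20 reported, 17 had a value (Kcne1, Kcne2 and Kcne4 did not), from Kcnq3 at 0.455 per kb to Nap1l1 at 2669. Kcnq3 and Kcnq5, channels of the family of Kcnq1, were low, the latter at 3.51, and Kcne3, of the family of accessory subunits, was at 1.01. The other CIP/KIP inhibitors, Cdkn1a (p21) at 70.3 and Cdkn1b (p27) at 61.6, lay close to Cdkn1c at 68.9 per kb of exon. This closeness depends on the length used, and other lengths were not tried for relatives. The longest transcript of Cdkn1a has 2080 bases against 3553 exon bases, and that of Cdkn1c 1901 against 2039. Phlda2, at 247, lay between Phlda1 at 11.9 and Phlda3 at 361. Nap1l1 was 3.48-fold above Nap1l4, while Nap1l2, Nap1l3 and Nap1l5 were at 64.3, 32.2 and 16.8. Cd81 was close to Cd9 at 927 and above Cd151 at 464, Cd63 at 194 and Cd82 at 15.2, and its partner proteins Igsf8 and Ptgfrn were at 85.3 and 118.

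**Figure D5:**
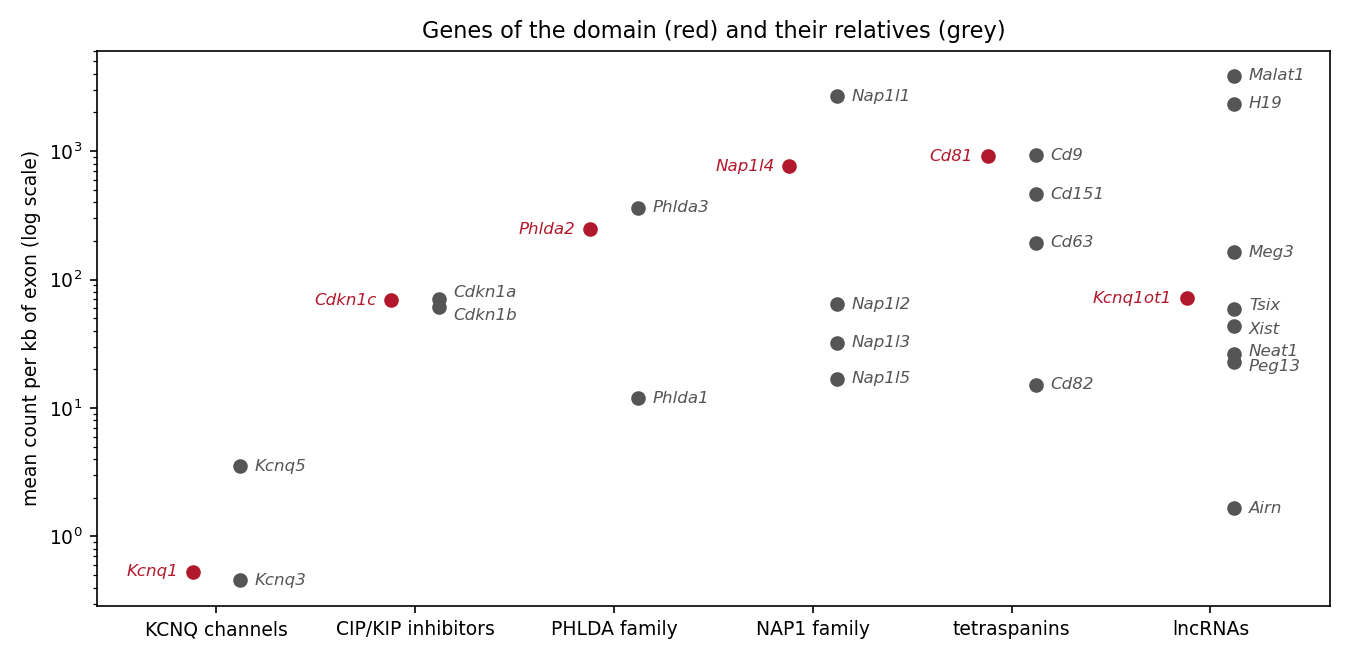
Mean count per kb of exon (log scale) of 6 genes of the domain (red) beside members of the same family or class (grey). Cdkn1c, Cdkn1a and Cdkn1b lie within 61.6 to 70.3, whereas the lncRNAs run from Airn at 1.65 to Malat1 at 3846.

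The letters GGAC, the core in which METTL3 most often methylates adenosine, were counted in the longest transcript of each gene. Kcnq1ot1 held 261, the third highest number of any gene, which over its length is 2.80 per kb, and 22.2% of 17376 genes were lower. Its GC content of 40.3% was low, and genes within 1 percentage point of it had a median of 2.46 per kb, against 4.05 per kb over all genes. Tssc4 had 21 sites, 12.1 per kb, with 99.8% of genes lower, and Cdkn1c had 16, 8.42 per kb, with 97.4% lower. Slc22a18 followed with 6.44 per kb and Nap1l4 with 4.81. Phlda2, Kcnq1 and Cd81 lay below the median of all genes, at 3.96, 3.30 and 1.87 per kb. Genes within 1 percentage point in GC content had medians of 5.95 for Tssc4, 5.98 for Cdkn1c, 5.45 for Slc22a18 and 4.20 for Nap1l4. For Phlda2, Kcnq1 and Cd81 these medians were 5.44, 5.45 and 4.26, so each protein-coding gene stayed on the same side. Methylation itself was not measured in these libraries.

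The cell type named in the labels was checked with fixed markers. All 8 embryonic stem cell markers were above Kcnq1ot1 per kb, from Klf4 at 464 to Dppa5a at 16142. Of 10 fibroblast markers, which the feeders would bring, Sparc (806), Vim (437) and Fn1 (423) were above the median of all genes, while the collagens Col1a1, Col1a2 and Col3a1 were at 3.02, 1.11 and 0.853 and Postn was at 0.0882. Of 5 trophoblast markers 2 were above the median, Tfap2c at 250 and Eomes at 74.0, and Elf5 was the lowest at 0.352. Of 5 primitive endoderm markers none was above the median, with the highest, Sox7, at 7.91. In bulk RNA, fewer cells of a type and less RNA per cell cannot be told apart.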

How the data were processed

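Total RNA of 8 libraries was sequenced by the authors with a stranded, ribosomal RNA-depleted kit and paired-end reads. The authors removed ribosomal reads with bowtie2, aligned uniquely with STAR to mm10 with strain variants masked, removed duplicates with Picard, and counted genes and transposable elements with TEtranscripts. The 1 deposited table has 6 columns. The signal column, deposited as the mean over libraries of counts divided by size factors, was used. The other 5 (log2 fold change, its error, statistic, p and adjusted p) are the authors' comparison and were not used. No column of single libraries was left unmapped (0).

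Mean counts of genes summed to 14573411 and those of transposable elements to 1719306, and depth per library is known only as size factors. Exon lengths came from GENCODE vM21: 16660 genes matched by symbol and 717 by synonym (98.7%), 34 matched several genes and were left out, and 186 had no match. A percentile is the share of the 17377 genes that is lower. Splitting of mean counts into whole reads was devised after the table was seen. For Slc22a18, at a mean count of 7.94, 1 split was found, and its accuracy at that level was not tested. No test between groups was made, since the values of the libraries were not analysed here beyond the reads recovered for low genes. Genes named were all 8 members, the listed genes of the region, lncRNAs, relatives, factors at imprinted control regions and cell type markers, and some listed relatives are not reported here. The members and lists were chosen with earlier results of these data known. Python 3.11.15, pandas 2.3.3, numpy 2.4.6, scipy 1.17.1 and matplotlib 3.10.9 were used. Alternatives were a mean count minimum of 10, other lengths, other denominators of the share and the central 200 bases of each promoter window.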

Additional observations from a re-analysis of the deposited data

How the results depend on the processing

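Of 45 alternative values, 31 stayed close to those reported (within 5 percentage points for a percentile, within 1.5 times for a share or CpG ratio) and 14 moved. For each of the 8 members, 1 of the 31 concerned its share of all summed mean counts, which is not given above. It added transposable elements to the total, which changes every gene by the same factor, below 1.5 times, so it could not move. With genes under a mean count of 10 left out, 47.2% of genes were lower than Kcnq1ot1, 46.3% lower than Cdkn1c and 74.6% lower than Phlda2, since fewer low genes were ranked, and Kcnq1 and Slc22a18 fell below the minimum. With the whole span as the length, the percentage of genes that were lower was 83.8 for Kcnq1ot1, 79.8 for Cdkn1c, 92.3 for Phlda2, 96.1 for Tssc4, 83.0 for Nap1l4, 18.9 for Slc22a18 and 1.19 for Kcnq1. With only exon bases free of other genes it was 63.8 for Cdkn1c. The share of Kcnq1ot1 was 52.4% of the 8 members' summed mean counts and 1.37% of the region's summed values per kb. The central 200 bases of the Slc22a18 promoter held 0 CpG sites, which gives a ratio of 0. No paired analysis was possible because the table gives 1 mean a gene over all libraries and no value per library, and for the same reason no replicate was left out in turn. The levels of Kcnq1 and Slc22a18 rest on 17 and 69 reads in all. For Slc22a18 the interval of library 7 did not overlap those of library 3 and library 8.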

Other observations

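Factors known at imprinted control regions were abundant in these cells. All 18 listed had a value, with a median of 964 mean counts per kb of exon, and 17 were above Kcnq1ot1. Trim28, the corepressor recruited by KRAB zinc finger proteins, was the highest at 4534 per kb, and Ring1, a Polycomb subunit, the lowest at 48.7. Zfp57, the zinc finger protein that keeps methylation at imprinted regions, was at 1218. The DNA methyltransferases Dnmt1, Dnmt3a and Dnmt3b were at 867, 140 and 919, and Dnmt3l, a cofactor of Dnmt3a and Dnmt3b, was at 1437.

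In the recovered reads, the 8 values of Slc22a18 divided by size factor ran from 3.04 to 15.3, with libraries 3, 6 and 8 the highest at 11.0 to 15.3. The exact Poisson intervals overlapped, except that of library 7 with those of libraries 3 and 8. Trpm5 had 28 reads, with 0, 1, 2, 2, 8, 3, 2 and 10 from library 1 to library 8, and its highest values, 8.22 and 6.96, were in libraries 5 and 8. Th had 25 reads, from 2 to 5 in every library. The libraries carry no name, so whether these differences follow clone or treatment is not known.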
